A study of Mus musculus with 6 samples.

Results

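Ferritin, the iron transporters, the iron regulatory proteins and heme oxygenase were followed in microglia, the resident macrophages of the brain, with and without miR-137. The set was chosen by gene name and holds 9 genes, Fth1, Ftl1, Slc40a1, Tfrc, Slc11a1, Slc11a2, Hmox1, Aco1 and Ireb2, of 17459 gene symbols in the count table. All 9 were measured in each of the 6 libraries and passed the filter on low counts. The libraries were made from total RNA of primary microglia of male C57BL/6J mice, with an age of 8 weeks given for each. The 3 cKO libraries came from Mir137loxP/loxP;Tmem119-CreERT2 mice and the 3 cWT libraries from Mir137+/+;Tmem119-CreERT2 mice. Both genotypes carried the Cre recombinase, which is driven by the microglial gene Tmem119 and needs tamoxifen to act, and both received tamoxifen for 7 days at 7 to 8 weeks of age. The labels give 4 mice for the isolation without saying how they fall into the replicates, so the p-values rest on the scatter among these libraries alone, and that scatter may be technical. In bulk samples such as these, fewer cells of a type and less RNA per cell cannot be told apart.

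Cells take up iron bound to transferrin through the transferrin receptor, move it out of the endosome with a divalent metal transporter, store the surplus in ferritin cages built from heavy and light chains, and release it through ferroportin. Macrophages also gain iron from the heme of engulfed cells, which heme oxygenase breaks down. When iron is scarce, the iron regulatory proteins bind a hairpin called the iron-responsive element. A hairpin in the 5′ untranslated region blocks translation of the message, and hairpins in the 3′ untranslated region of the transferrin receptor protect its message from decay. Translation and protein were not measured here, so the values below are those of the messages alone.

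The hairpins are shown because they tie genes of the set to the members Aco1 and Ireb2, whose proteins bind them. The search described here found them in 4 of the 9 genes. Transcripts of GENCODE M21 (GRCm38) were searched on the transcript strand for CNNNNNCAGTGN followed by 5 bases that pair with the 5 before the loop, G with T allowed. The loop CAGTGN is in capitals, with flanks in lower case, 5′ to 3′. Fth1 lies on the plus strand at chr19:9982732-9982760, Ftl1 on the minus strand at chr7:45459779-45459807 and Slc40a1 on the minus strand at chr1:45925465-45925493, each in the 5′ untranslated region. Those of Tfrc lie in its 3′ untranslated region on the plus strand, at chr16:32631219-32631247, chr16:32631598-32631626, chr16:32631663-32631691 and chr16:32631710-32631738.
Fth1: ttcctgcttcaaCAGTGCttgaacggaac
Ftl1: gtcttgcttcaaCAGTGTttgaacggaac
Slc40a1: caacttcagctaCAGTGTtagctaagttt
Tfrc, the first from the 5′ side: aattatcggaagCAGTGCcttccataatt
Tfrc, the second: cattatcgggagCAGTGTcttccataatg
Tfrc, the third: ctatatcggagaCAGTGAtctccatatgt
Tfrc, the fourth: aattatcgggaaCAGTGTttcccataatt
The hairpins of the ferritin chains shared 26 of 29 bases, while that of Fth1 shared 13 of 29 with that of Slc40a1. These counts include the C and the CAGTG of the pattern, which the search makes alike in all matches. Among the longest untranslated regions of all coding genes, such a match stood in 22 of 20899 at the 5′ side (0.105%) and in 121 of 21028 at the 3′ side (0.575%). No match of this form was found in the longest untranslated regions of Slc11a1, Slc11a2, Hmox1, Aco1 or Ireb2. The search asks for 5 unbroken pairs, so a hairpin with a bulge among them is missed. These genes may thus hold hairpins of another form, and Tfrc and the other genes with a match may hold further ones.

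The microRNA whose gene was targeted for deletion is printed for its seed, bases 2 to 8, which are in capitals (RefSeq, GRCm38.p6).
mmu-miR-137-3p: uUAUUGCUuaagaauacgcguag
The complement of this seed, AGCAATA, was searched on the transcript strand in the longest annotated 3′ untranslated region of each member. It occurred in none of the 9, whose regions ran from 156 bases in Fth1 to 2789 in Ireb2. Shorter or other forms of site and other parts of the messages were not searched. It was present in 9.67% of the 21028 regions of all genes. Among regions of a length near that of the member, its share was 1.56% for Fth1 and 19.5% for Ireb2.

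The libraries held 16503817 to 17482042 estimated counts in cWT and 12068698 to 15212806 in cKO. Levels are in CPM, counts relative to library size after TMM scaling between libraries. The authors' deposited table lists Mir137 at a base mean of 0, so its deletion was not checked from these values. All 10 microglial markers examined were measured, with a summed level of 35336 to 37565 CPM in cWT and 32878 to 37091 CPM in cKO, where 3 were higher and 5 lower. Markers of choroid plexus summed to 2854 to 3246 CPM in cWT and 11419.6 to 15724 CPM in cKO, and 6 of 6 were higher. Neutrophil markers summed to 4494 to 5069.7 CPM in cWT and 11918 to 16408 CPM in cKO, with 6 of 8 higher and 1 lower. Border-associated macrophages, which are known for handling heme and iron, had marker sums of 1938 to 2109.7 CPM in cWT and 1113 to 1275 CPM in cKO. Among their 8 markers 4 were higher and 2 lower. Monocyte markers summed to 506 to 594 CPM in cWT and 1026 to 1346 CPM in cKO, with 4 of 6 higher and 1 lower. Endothelial markers summed to 1390.0 to 1699.7 CPM in cWT and 1938 to 2358 CPM in cKO, with 3 of 8 higher and 4 lower. Astrocyte sums were 389 to 403 CPM in cWT and 407 to 639 CPM in cKO, with 2 of 7 higher, and sums of neuronal and erythroid markers overlapped between the genotypes. Of 5 erythroid markers tested, 1 was called lower and none higher. That marker, Hbb-bs, was at 23.9, 23.4 and 6.22 CPM in cWT and at 0 CPM in each cKO library. No marker of these lists was at 0 in all 6 libraries. For comparison, 35.6% of all genes tested were higher and 36.5% lower, and calls ran with transcript length. In the shortest of 10 length groups described below 86.1% of genes were higher, and in the longest 83.4% were lower. Marker sums were not adjusted for length, so a change in a sum was not taken as a change in cells. The part of these cells in the results below was not tested.

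All 9 genes differed between cKO and cWT by edgeR's quasi-likelihood test at an adjusted p under 0.05, 4 higher and 5 lower. The genes for ferritin, heme oxygenase and the phagosomal transporter Slc11a1 were higher in cKO, and those for ferroportin, the transferrin receptor, Slc11a2 and both iron regulatory proteins were lower. In a second fit with offsets for length and GC, described further on, Fth1 turned to -0.39 with a call, Aco1 turned to 0.20, and Ftl1, Hmox1, Tfrc, Slc11a2 and Aco1 were not called. Of all 13490 genes tested, 72.1% were called, 35.6% higher and 36.5% lower, so a share this high is near what the whole table shows. Libraries of the 2 genotypes did not overlap for any of the 9, and for 74.6% of all genes tested. The median log2 fold change was -0.23 over the 9 genes and -0.02 over all genes tested. With scaling by total count and no TMM factor, the median of all genes moved to -0.415, and the fold changes of the 9 genes moved down with it.

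**Figure D1:**
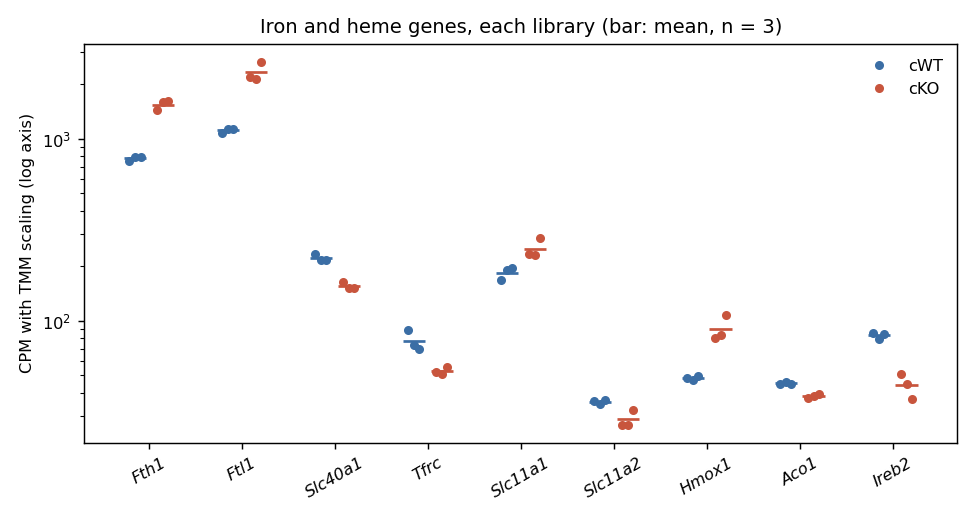
CPM of the 9 genes on a log axis, with 1 point per library (cWT blue, cKO red) and a bar at the mean of 3 libraries. The 2 genotypes do not overlap for any gene, and the ferritin genes lie above the others in both.

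Fth1 encodes the ferritin heavy chain, which oxidises iron for storage (chromosome 19, 9980598 to 9985098, plus strand). Its level was 755, 796 and 791 CPM in cWT and 1429.5, 1581 and 1602 CPM in cKO. Each cKO library lay far above each cWT library. The log2 fold change was 0.98 (SE 0.10, edgeR adjusted p = 8.955e-08), a 1.97-fold difference.

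Ftl1 encodes the light chain, which helps iron settle in the core of the cage (chromosome 7, 45457944 to 45459884, minus strand). It stood at 1076, 1134 and 1123 CPM in cWT and at 2173, 2136 and 2632 CPM in cKO. The third cKO library was the highest, and the genotypes were again apart. Ftl1 had a log2 fold change of 1.06 with an SE of 0.11 (edgeR adjusted p = 1.08e-07). Both ferritin genes together took 0.217% ± 0.00834 of all counts in cWT and 0.336% ± 0.0301 in cKO (SD, n = 3 each). Ferritin genes have processed pseudogenes with near-identical sequence, and 2 further genes overlap Ftl1 in the annotation, so how reads were split among these copies makes their levels uncertain.

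The balance of heavy to light chain was compared within each library, where scaling plays no part. Per kb of transcript, the ratio of Fth1 to Ftl1 was 0.731, 0.732 and 0.734 in cWT and 0.686, 0.771 and 0.634 in cKO. The cWT libraries were nearly alike and the cKO libraries lay on both sides of them. The log2 ratio in cKO minus that in cWT was -0.075 (SD 0.003 in cWT and 0.142 in cKO, n = 3 each, two-sided exact permutation p = 0.4). Samples of 3 against 3 cannot give a p below 0.1 in this test. For the 3 ratios examined here, the smallest p of 0.1 was reached by the 2 described below, and no ratio can pass an adjustment over them.

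Slc40a1 encodes ferroportin, the known exporter of iron from cells (chromosome 1, 45908068 to 45926523, minus strand). Its level was 233, 214 and 215 CPM in cWT and 162, 152 and 152 CPM in cKO. All cKO libraries were lower, with little spread inside either genotype. The log2 fold change was -0.51 (SE 0.09, edgeR adjusted p = 6.294e-05), so cWT was 1.42-fold above cKO.

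Tfrc encodes the transferrin receptor, the entry for transferrin-bound iron (chromosome 16, 32608920 to 32632794, plus strand). It measured 89.4, 73.8 and 70.1 CPM in cWT and 52.4, 50.7 and 56.0 CPM in cKO. The first cWT library stood above the other two, and the lowest cWT library was still above the highest cKO library. Its log2 fold change was -0.55 (SE 0.11, edgeR adjusted p = 0.0001626). Of the messages with hairpins shown above, those of the ferritin chains were higher in cKO and that of ferroportin, with its hairpin at the same end, was lower, but with the offsets described below all 3 lay below 0 (Fth1 -0.39, Ftl1 -0.10, Slc40a1 -0.46). In the pathway lists described below, Alas2, which starts heme synthesis in red cell precursors, also had a match at the 5′ side, with a log2 fold change of -0.40 (edgeR adjusted p = 0.214). Over all 17 tested genes with a 5′ match, 9 were higher and 5 lower in cKO. Over all 93 with a 3′ match, 24 were higher and 49 lower. Of all genes tested, 35.6% were higher and 36.5% lower. The counts include the members with a match and were not set against genes of like length. In the longest of 10 length groups described below, 83.4% of genes were lower.

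Slc11a1 and Slc11a2 are homologous carriers of divalent metals. Slc11a1 works in the phagosome of macrophages (chromosome 1, 74375195 to 74386062, plus strand), and the C57BL/6 strains are known to carry an allele of it that yields no working protein. Its level was 167, 191 and 194 CPM in cWT and 233, 228 and 284 CPM in cKO. The genotypes were apart, with the third cKO library the highest. Its log2 fold change was 0.44 (SE 0.10, edgeR adjusted p = 0.00114). With libraries scaled by total count alone it was 0.04 and not called (adjusted p = 0.733).

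Slc11a2, which moves iron out of the endosome (chromosome 15, 100387898 to 100425072, minus strand), stood at 36.4, 34.9 and 36.5 CPM in cWT. In cKO it was at 26.9, 26.8 and 32.4 CPM. The third cKO library came closest to the cWT range without reaching it. The log2 fold change was -0.32 (SE 0.11, edgeR adjusted p = 0.01776). The call was lost without cWT replicate 3 (adjusted p = 0.0545) and without cKO replicate 2 (adjusted p = 0.0694). A second gene, Gm5475, overlaps Slc11a2 on the opposite strand, and no source used here states whether counting used strand.

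The ratio of Slc11a1 to Slc11a2 per kb was 5.99, 7.15 and 6.93 in cWT and 11.3, 11.1 and 11.5 in cKO. Every cKO library exceeded every cWT library. The log2 ratio in cKO minus that in cWT was 0.76 (SD 0.14 in cWT and 0.02 in cKO, n = 3 each, two-sided exact permutation p = 0.1).

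Hmox1 encodes the inducible heme oxygenase, which frees iron from heme (chromosome 8, 75093621 to 75100589, plus strand). It was at 48.5, 46.9 and 49.4 CPM in cWT and at 80.5, 83.2 and 107 CPM in cKO. The cWT libraries were close together, and the third cKO library was again the highest of its group. Its log2 fold change was 0.90 (SE 0.11, edgeR adjusted p = 8.56e-07), a 1.87-fold difference.

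Aco1 and Ireb2 encode the iron regulatory proteins, and the protein of Aco1 doubles as the cytosolic aconitase. Ireb2 (chromosome 9, 54863789 to 54912530, plus strand) went from 85.2, 79.7 and 84.1 CPM in cWT to 51.1, 45.0 and 37.0 CPM in cKO. The groups were far apart, with a wider spread in cKO. Its log2 fold change of -0.91 with an SE of 0.11 (edgeR adjusted p = 9.43e-07) was the most negative of the 9 genes.

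Aco1 (chromosome 4, 40143081 to 40198338, plus strand) was at 45.0, 46.0 and 44.8 CPM in cWT and at 37.4, 38.4 and 39.7 CPM in cKO. The groups did not overlap, but the log2 fold change was small, at -0.23 (SE 0.10, edgeR adjusted p = 0.04444). Its call was lost without any 1 of the cWT replicates and without cKO replicate 1 or 2 (adjusted p from 0.0736 to 0.12), with RLE size factors (0.0614) and with DESeq2 (0.0796). With the offsets its direction turned, to 0.20 (adjusted p = 0.05154), and with the replicate block added it was called higher, at 0.205 (adjusted p = 0.0491). In the authors' deposited table it has an adjusted p of 0.07614. The remaining 8 genes have an adjusted p of at most 0.02908 in the authors' deposited table.

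Per kb, the ratio of Aco1 to Ireb2 was 0.796, 0.868 and 0.803 in cWT and 1.10, 1.29 and 1.61 in cKO. Ireb2 was thus the more abundant of the pair in each cWT library and Aco1 in each cKO library, an order within cWT that turns when the mean length of all annotated transcripts is used (log2 ratio 0.43 in place of -0.28). The log2 ratio in cKO minus that in cWT was 0.68 (SD 0.07 in cWT and 0.28 in cKO, n = 3 each, two-sided exact permutation p = 0.1), and 0.41 with the offsets.

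**Figure D2:**
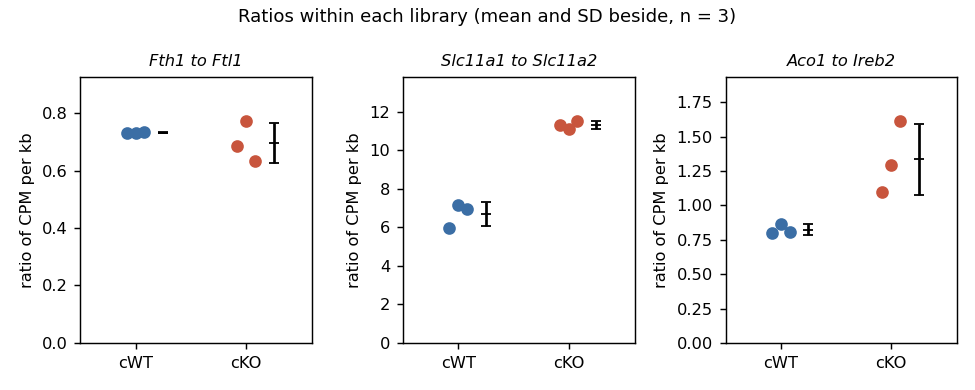
Ratios of CPM per kb of transcript for 3 pairs of genes, with 1 point per library and the mean and SD (n = 3) beside the points. The Fth1 to Ftl1 ratio overlaps between the genotypes, and the other two are higher in each cKO library.

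Levels per kb of transcript put the genes in order within each genotype. In cWT the ferritin genes led, with Ftl1 at 1148 ± 31.4 and Fth1 at 840.1 ± 24.1 CPM per kb (SD, n = 3). Slc11a1 followed at 79.4 ± 6.40, Slc40a1 at 65.5 ± 3.24 and Hmox1 at 30.8 ± 0.797 CPM per kb. Tfrc, Ireb2, Slc11a2 and Aco1 closed the order, between 15.9 ± 2.09 and 11.8 ± 0.162 CPM per kb. The ranges of Tfrc and Ireb2 overlapped, as did those of Slc11a2 and Aco1, and the other neighbours were apart. In cKO, Hmox1 at 57.5 ± 9.31 CPM per kb stood above Slc40a1 at 46.1 ± 1.82, which reversed their order. Their transcripts have 1569 and 3370 bases, and fold changes ran with length, as described next. With the offsets described below, the log2 fold change was 0.12 for Hmox1 and -0.46 for Slc40a1. The order of levels was not drawn up in that fit. Ireb2 moved to the last place at 7.69 ± 1.22 CPM per kb, and the ranges of Tfrc and Aco1 and of Aco1 and Slc11a2 overlapped.

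The fold changes of these genes ran with the length of their transcripts. The 4 genes that were higher have transcripts of 929 to 2315 bases, and the 5 that were lower have 3025 to 5770 bases. Over the whole table, genes in the shortest of 10 equal length groups had a median log2 fold change of 1.57, and those in the longest group had -1.44. Fth1 and Ftl1 belong to the shortest group and lay 0.59 and 0.51 below its median, under its lower quartile of 1.07. In the fit without offsets their messages were higher in cKO than in cWT, but less so than most messages of that length. With the offsets described below, Fth1 stood at -0.39 and Ftl1 at -0.10. The other 7 genes lay between the quartiles of their own length groups. Hmox1 had 0.90 against a group median of 0.98, and Ireb2 had -0.91 against -0.97. Tfrc, in the same group as Ireb2, was 0.42 above that median. Slc40a1 lay 0.32 below the median of its group, which was -0.18, and Slc11a1 lay 0.15 above its own.

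**Figure D3:**
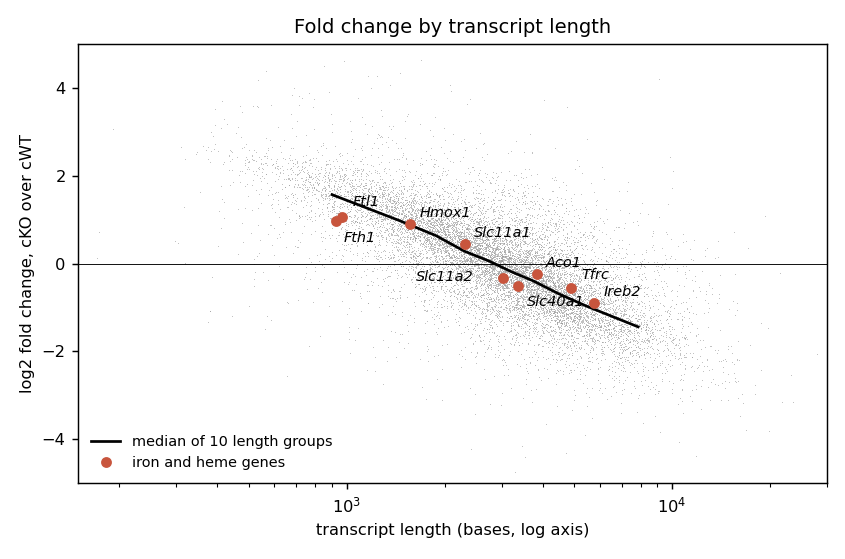
Log2 fold change of cKO over cWT against transcript length in bases on a log axis, for 12983 genes (grey), the median of 10 length groups (line) and the 9 iron and heme genes (red). Fth1 and Ftl1 lie under the line at the short end, and 14 genes outside the axes are not drawn.

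A second fit used offsets for each library against the trend with length and GC content. The median log2 fold change was then 0.19 in the shortest length group and -0.17 in the longest, so some trend with length remained. Of 12983 genes, 57.3% were called in that fit, 29.8% higher and 27.5% lower. Slc11a1 was then the 1 member called higher, at a log2 fold change of 0.32 with an SE of 0.07 (edgeR adjusted p = 0.000607). Slc40a1 was lower at -0.46 (SE 0.07, adjusted p = 6.537e-06) and Ireb2 at -0.21 (SE 0.09, adjusted p = 0.03855), both in the direction they had without offsets. Fth1 turned, to -0.39 (SE 0.08, edgeR adjusted p = 0.0002276). Ftl1 stood at -0.10 (adjusted p = 0.3114), Hmox1 at 0.12 (adjusted p = 0.2609) and Tfrc at -0.04 (adjusted p = 0.7448). Slc11a2 at -0.20 (edgeR adjusted p = 0.1002) and Aco1 at 0.20 (adjusted p = 0.05154) were not called either. Slc11a1, Slc40a1 and Ireb2 are thus the 3 genes called in the same direction with and without the offsets.

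**Figure D4:**
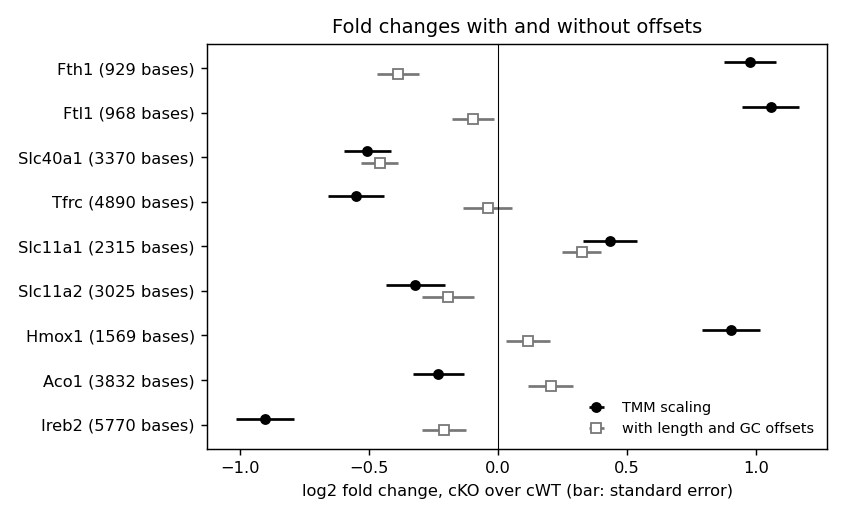
Log2 fold change of cKO over cWT with its standard error for the 9 genes, with TMM scaling alone (filled) and with the length and GC offsets (open). Slc40a1, Slc11a1 and Ireb2 keep their side of 0 and their call, and Fth1 moves from 0.98 to -0.39.

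The other genes of iron and heme handling were taken from 7 lists by role, of which 63 of 70 genes were tested. Of these 35 were higher and 15 lower, against 35.6% and 36.5% of all genes tested, and their median log2 fold change was 0.40. With the offsets 28 of 61 were higher and 12 lower, against 29.8% and 27.5% of all genes in that fit, with a median of 0.18. With scaling by total count alone 27 were higher and 24 lower. The counts of each list below stand beside these same shares of all genes. Hamp, the gene of the hormone hepcidin that closes ferroportin, had 0 counts in each library, where 3 counts per library is the upper limit that a count of 0 allows.

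Of the genes of ferritin turnover and the iron chaperones, 5 of 6 were higher in cKO and 1 lower. With the offsets 3 were higher and 1 lower, and none of the higher ones was Pcbp1, Pcbp2 or Ncoa4. The iron chaperones Pcbp1 and Pcbp2, which deliver iron to ferritin, rose by 0.32 (edgeR adjusted p = 0.005683) and 0.25 (adjusted p = 0.01845) on the log2 scale. Ncoa4, the receptor that takes ferritin to the lysosome, fell by 0.29 (edgeR adjusted p = 0.01953), from 274 ± 34.8 to 224 ± 17.8 CPM (SD, n = 3 each). It was not called without cWT replicate 1 (adjusted p = 0.123) or cKO replicate 2 (0.0958), nor with the offsets, at 0.04. With libraries scaled by total count alone, Pcbp1 and Pcbp2 stood at -0.07 and -0.14, and with the offsets at -0.05 and -0.77. Pcbp2 also lost its call when low counts were kept (adjusted p = 0.0678), without any 1 of the cWT replicates and without cKO replicate 2 (adjusted p from 0.0528 to 0.0647).

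Of the transferrin cycle and the iron-binding proteins outside cells, 6 of 9 genes were higher and 2 lower, and with the offsets 5 were higher and 1 lower. Trf, which encodes transferrin, went from 1301 ± 88.6 to 1721 ± 250.1 CPM, which gave a log2 fold change of 0.40 with an SE of 0.12 (edgeR adjusted p = 0.004802, n = 3 each). It stood at 0.34 with the offsets, and at 0.01 without a call with scaling by total count alone. Trf is known to be made by choroid plexus and oligodendrocytes, whose markers summed to 287 to 295 CPM in cWT and 316 to 468 CPM in cKO for the latter. Lcn2, which binds bacterial iron carriers, rose by 1.32 (edgeR adjusted p = 8.188e-10) and stood at -0.03 with the offsets. Ltf, the iron-binding lactoferrin, fell by 0.71 (edgeR adjusted p = 8.037e-05) and stood at -0.73 with the offsets. Lcn2 and Ltf also belong to the neutrophil list, whose other 6 markers included 5 that were higher.

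Other iron carriers and partners of export had no gene higher and 3 of 5 lower, while 1 was higher and 1 lower with the offsets. The ferroxidase Cp, which works with ferroportin, fell by 0.43 (edgeR adjusted p = 0.006136), with overlapping libraries, and was not called with the offsets (-0.16). Cyb561a3, a lysosomal ferric reductase, fell by 0.33 (edgeR adjusted p = 0.006369), lost its call without cKO replicate 2 (0.0512) and stood at -1.16 with the offsets. Slc39a8, a metal importer, had a log2 fold change of -0.08 (edgeR adjusted p = 0.4956), and -0.47 with scaling by total count alone (adjusted p = 0.000533).

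In heme uptake, traffic and breakdown, 6 of 11 genes were higher and 2 lower, and with the offsets 6 of 9 were higher and 1 lower. Hmox2, the constitutive heme oxygenase, went from 102 ± 1.45 to 199 ± 13.4 CPM, which gave a log2 fold change of 0.97 with an SE of 0.09 (edgeR adjusted p = 2.576e-08, n = 3 each), close to that of Hmox1. With the offsets it was 0.24 (edgeR adjusted p = 0.006892). Hp, which encodes the haemoglobin scavenger haptoglobin and is also known from neutrophils, rose by 1.59 (edgeR adjusted p = 4.646e-11) and by 0.72 with the offsets. Lrp1, the receptor for heme bound to hemopexin, fell by 3.13 (SE 0.11, edgeR adjusted p = 4.93e-13), from 1714 ± 112 to 196 ± 0.285 CPM, and by 1.07 with the offsets.

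Of the mitochondrial iron and iron-sulfur cluster genes 13 of 15 were higher and 2 lower, against 35.6% and 36.5% of all genes tested. Their median transcript length was 1942 bases, and 66.1% of all genes with 1676 to 2080 bases were higher. The scaffold gene Iscu rose by 1.73 (edgeR adjusted p = 4.599e-11), Isca1 by 0.61 (adjusted p = 9.307e-06) and Ciao1, which acts on clusters in the cytosol, by 0.95 (adjusted p = 1.01e-07). With the offsets these stood at 0.46, 0.02 and 0.92, and 7 of the 15 genes were higher and 2 lower. Slc25a37, a mitochondrial iron importer named here after its values were seen, fell by 1.78 (edgeR adjusted p = 1.087e-10). Its transcript has 4174 bases, in a length group with a median log2 fold change of -0.68.

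Heme synthesis was mixed, with 4 of 9 genes higher and 1 lower, and 3 higher and 2 lower with the offsets. Urod, a late enzyme of the pathway, rose by 1.49 (edgeR adjusted p = 1.144e-09) and by 0.65 with the offsets. Alas1, the first enzyme, had a log2 fold change of -0.14 (edgeR adjusted p = 0.1989). Fech, which puts iron into heme, was at 0.22 (edgeR adjusted p = 0.0539). It was called with the offsets at 1.29, with RLE size factors (0.24, adjusted p = 0.0377), DESeq2 (0.24, adjusted p = 0.0471) and limma-voom (0.22, adjusted p = 0.0472). It was also called with a filter at 5 CPM (0.24, adjusted p = 0.0289), with the replicate block (0.22, adjusted p = 0.0399) and without cKO replicate 2 (0.25, adjusted p = 0.0453). Scaling by total count alone gave it -0.175, without a call. Alas1 under that scaling was called at -0.54.

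Among the transcriptional regulators of these genes, 1 of 8 was higher and 4 lower, and with the offsets 3 were higher and 4 lower. Bach1, the heme-sensing repressor of Hmox1 and the ferritin genes, went from 179 ± 4.64 to 66.0 ± 4.02 CPM, which gave a log2 fold change of -1.44 with an SE of 0.09 (edgeR adjusted p = 2.01e-10, n = 3 each). It stood at -0.49 with the offsets (adjusted p = 7.8e-06). Epas1, a hypoxia factor, fell by 1.35 (edgeR adjusted p = 1.83e-09) and by 0.36 with the offsets. Nfe2l2, the activator of the antioxidant response at Hmox1 and the ferritin genes, had a log2 fold change of -0.07 (edgeR adjusted p = 0.5315). It was called lower at -0.32 with the offsets and at -0.47 with scaling by total count alone.

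**Figure D5:**
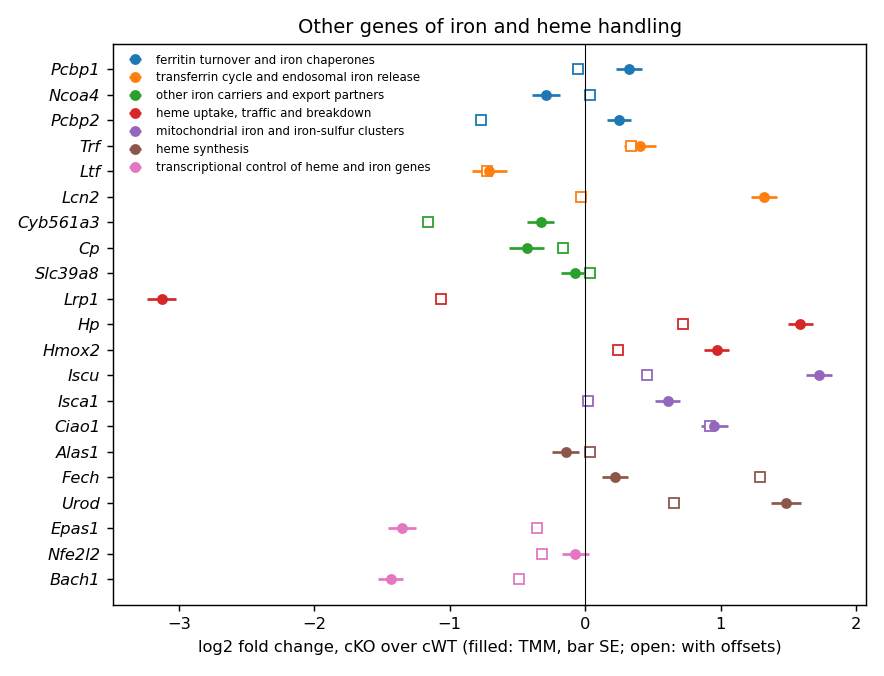
Log2 fold change of cKO over cWT for the 3 most abundant tested genes of each of 7 lists of iron and heme handling, with TMM scaling and its standard error (filled) and with the length and GC offsets (open). Lrp1, Epas1 and Bach1 lie below 0 in both fits, and Hp, Hmox2, Iscu, Ciao1 and Urod above 0 in both.

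Each member was set beside the pathway gene or other member with the most similar course over the 6 libraries, by the root mean square difference of log2 CPM after centring each gene. Among 71 candidates, Trf came closest to Slc11a1, with a difference of 0.029. Slc40a1 and Tfrc were each closest to the other, at 0.091, and Hmox1 was closest to Ftl1, at 0.097. The nearest gene to Fth1 was Ciao1 (0.071), to Ftl1 Hfe (0.088) and to Ireb2 Hif1a (0.114). Slc11a2 paired with Cyb561a3 (0.069) and Aco1 with Alas1 (0.075). These are descriptions of 6 libraries in 2 separate groups, so genes with like fold changes come out alike.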

How the data were processed

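Messages were counted by RNA-seq in 3 libraries of each genotype. The authors deposited estimated counts per gene symbol, not scaled between libraries, of which 5.50% to 5.85% per column were not whole. The submitters' processing notes name STAR 2.7.9a, RSEM, DESeq2, GRCm38 and mm10, without saying what each did. The authors also deposited a comparison of cKO with cWT, with a base mean (a scaled signal), log2 fold changes, a Wald statistic (a score) and p-values, per the file headers.

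Counts were rounded and tested two-sided with edgeR 4.0.16 (R 4.3.3): filterByExpr with a minimum count of 10, TMM scaling, robust quasi-likelihood fit, genotype as the only term, and Benjamini-Hochberg adjustment over 13490 genes. Offsets came from splines with 5 degrees of freedom each for log length and GC content, for 12983 genes with a GENCODE M21 transcript. That transcript was the 1 with the best APPRIS level, then support level. The script was tested on simulated data. DESeq2 1.42.0, limma-voom (3.58.1), other scalings and filters, a replicate block and leaving out each library were the alternatives. No libraries of 1 genotype were alike within counting noise (chi-square per degree of freedom 3.84 to 19.3). The limit for a count of 0 covers counting error only, as the reads carry no molecular identifiers.

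The 9 members, lists and alternatives were chosen with earlier results of these data known. Besides the members, the text names the 3 most abundant tested genes of each of 7 lists, and for each member the most similar gene. Slc25a37, Alas2, Hamp and the marker Hbb-bs are named outside this rule, after their values were seen. Flvcr1, Flvcr2 and Meltf were matched by their older symbols. Ftmt and Hamp2 were not among the gene symbols of the count table and were not analysed here.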

Additional observations from a re-analysis of the deposited data

How the results depend on the processing

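Offsets for length and GC content left 1 member higher and 3 lower, and 2 higher and 3 lower with the replicate block added. With the offsets Fth1 stood at -0.39, Ftl1 at -0.10 and Aco1 at 0.20, against 0.98, 1.06 and -0.23 without them, and at -0.39, -0.098 and 0.205 with the block added (adjusted p = 0.0491 for Aco1). Tfrc (-0.04 and -0.047), Slc11a2 (-0.20 and -0.20) and Hmox1 (0.12 and 0.11) lost their call in both fits. The Fth1 to Ftl1 difference moved to -0.29, the Slc11a1 to Slc11a2 difference to 0.52 and the Aco1 to Ireb2 difference to 0.41. Scaling by total count alone left Slc11a1 at 0.041 without a call and raised the pathway genes called lower to 24. Aco1 was not called with RLE size factors or with DESeq2 (-0.21 in each). The cause of these moves was not tested beyond what each setting changes by construction.

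Among pathway genes, the sign turned with the offsets for Pcbp1 (-0.052), Ncoa4 (0.038), Pcbp2 (-0.768), Lcn2 (-0.034), Slc39a8 (0.033) and Alas1 (0.033). With the block added these were -0.055, 0.039, -0.768, -0.034, 0.032 and 0.033. Total count alone turned Pcbp1 (-0.073), Pcbp2 (-0.144) and Fech (-0.175), and leaving out cKO replicate 3 turned Nfe2l2 (0.045).

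Leaving out each library in turn gave 4 members higher and 3 to 5 lower, with 3 lower without cWT replicate 3 or cKO replicate 2. Aco1 ranged from -0.25 to -0.21 and Slc11a2 from -0.40 to -0.26. The Fth1 to Ftl1 difference ranged from -0.15 to -0.01, that of Slc11a1 to Slc11a2 from 0.68 to 0.81 and that of Aco1 to Ireb2 from 0.54 to 0.81.

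Same-numbered libraries had correlated deviations of 0.099, 0.034 and 0.088, so the numbers were not taken to pair the samples, although each library correlated best with its own number. The replicate block without offsets called 4883 genes higher and 5028 lower, against 4803 and 4926, and changed the call of no member, while Fech became called (adjusted p = 0.0399). Ratio levels depend on the transcript length used: with the mean length of all annotated transcripts, the log2 ratio in cWT was -0.76 for Fth1 to Ftl1, 2.48 for Slc11a1 to Slc11a2 and 0.43 for Aco1 to Ireb2. With 3 libraries per genotype, no exact test of a ratio can pass 0.05.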
